A study of Mus musculus with 4 samples.

Results

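Gene expression was compared between 2 mouse liver libraries taken after 7 days of recovery from a choline-deficient, ethionine-supplemented (CDE) diet, 1 labelled OGT-KO and 1 labelled control. All genes that averaged 10 CPM (reads of a gene as a share of all reads, in parts per 1e+06) or more over the study's 4 libraries were compared, which were 8963 of the 13903 genes listed. All mice were OGT-floxed on a C57BL/6J background and all were fed the CDE diet, including the controls. The OGT-KO mice were given AAV8-TBG-CRE, an adeno-associated virus that carries Cre recombinase behind a hepatocyte promoter, and the control mice were given AAV8-TBG-eGFP, which carries a fluorescent protein instead. Each library was made from equal amounts of liver RNA of 3 mice, so a library is 1 pooled sample of its group. There was no replicate check of any difference below and no test was made across genes. Differences compare 2 pools, and whether they differ by more than pools of the same group would was not measured. Neither age nor sex is given by the labels used here. The other 2 libraries, taken without recovery, entered only the filter and the alternative scalings.

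OGT (O-GlcNAc transferase) attaches N-acetylglucosamine to serine and threonine residues of nuclear and cytoplasmic proteins, and OGA removes it. The sugar donor comes from the hexosamine pathway, which draws on glucose, glutamine, acetyl-CoA and UTP. Choline deficiency limits phosphatidylcholine synthesis in hepatocytes, ethionine competes with methionine, and the diet is known to injure hepatocytes and to bring about ductular reaction and fibrosis. In the adult liver most transcripts of secreted proteins, bile acid enzymes and cytochromes P450 come from hepatocytes, whereas collagens come mainly from stellate cells and portal fibroblasts.

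Values are given as CPM in the OGT-KO-labelled library against CPM in the control-labelled library, with the difference of log2(CPM + 1) in parentheses. "Higher" and "lower" refer to the OGT-KO-labelled library relative to the control-labelled library. Ogt had 77.7 CPM (95% exact counting interval 74.1 to 81.4) in the OGT-KO-labelled library and 55.7 CPM (52.5 to 59.05) in the control-labelled library, a difference of 0.47. That direction goes against the label, and it turned to -0.02 after scaling by the median ratio of compared genes. A whole-gene value may include exons outside the floxed part and transcripts of cells that AAV8-TBG-CRE does not target, so it does not check the deletion. All directions below are therefore between labels. Oga had 56.98 against 70.2 CPM (-0.30). Gfpt1, which encodes the rate-limiting enzyme of the hexosamine pathway, had 66.2 against 28.6 CPM (1.18). Uap1l1, a relative of the UDP-GlcNAc pyrophosphorylase gene, had 64.3 against 8.96 CPM (2.71) and Nans, a sialic acid synthase gene, had 64.3 against 16.1 CPM (1.93). Of 15 compared genes of the O-GlcNAc and hexosamine pathway, 6 were at least 2-fold higher, beside 22.9% of all compared genes. None was lower by as much, and 4 were higher under each of the 3 scalings described below. Of the 6 higher genes, 2 had passed the filter only through OGT-KO-labelled libraries. With at least 10 CPM in the control-labelled library 4 of 13 were higher, beside 13.5% of all such genes.

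At least 2-fold higher expression was exhibited by 2050 of the 8963 compared genes (22.9%), and at least 2-fold lower expression by 383 (4.27%). A difference of at least 4-fold was found upward for 788 genes and downward for 87, and one of at least 32-fold upward for 28 and downward for 15. The median difference of all compared genes was 0.48. The 100 most abundant genes took 34.3% of the reads in the OGT-KO-labelled library and 45.0% in the control-labelled library. The share of higher genes among those past 2-fold was 84.3% with the deposited scaling, 67.4% with upper-quartile scaling and 61.2% with median-ratio scaling, which moved the median to 0.10 and 0.00. Past 2-fold under each of the 3 scalings were 1198 genes upward (13.4%) and 383 downward (4.27%). Both alternative scalings moved the median downward, so the first count is that of median-ratio scaling and the second that of the deposited scaling. Requiring all 3 thus removed higher genes only. Median-ratio scaling alone gave 1198 higher and 760 lower genes. Lists of genes are described below beside the shares of all compared genes, and counts "under every scaling" refer to all 3 scalings. The filter could be passed through the libraries of 1 label alone, and counts over a list's compared members are in part fixed by it. Among the 7711 genes with at least 10 CPM in the control-labelled library, 13.5% were higher and 5.3% lower by 2-fold or more, and among all 13903 genes without a filter these shares were 32.3% and 3.32%. Dusp4, with a mean of 9.998 CPM, and P4ha2, with 9.9995 CPM, lay just outside the filter, and Tlr3 (10.0003 CPM) and Glipr2 (10.0005 CPM) just inside. Depth was 22567395 reads on listed genes in the OGT-KO-labelled library and 19972699 in the control-labelled library. For genes within 2-fold, the 95% counting interval of the log2 ratio was 0.47 wide at a mean of 10 to 20 CPM and 0.22 wide at 50 to 100 CPM (medians). Intervals cover counting error only, and not differences between mice or pools. They may be too narrow even for counting error, since reads without molecular identifiers are not independent molecules.

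**Figure D1:**
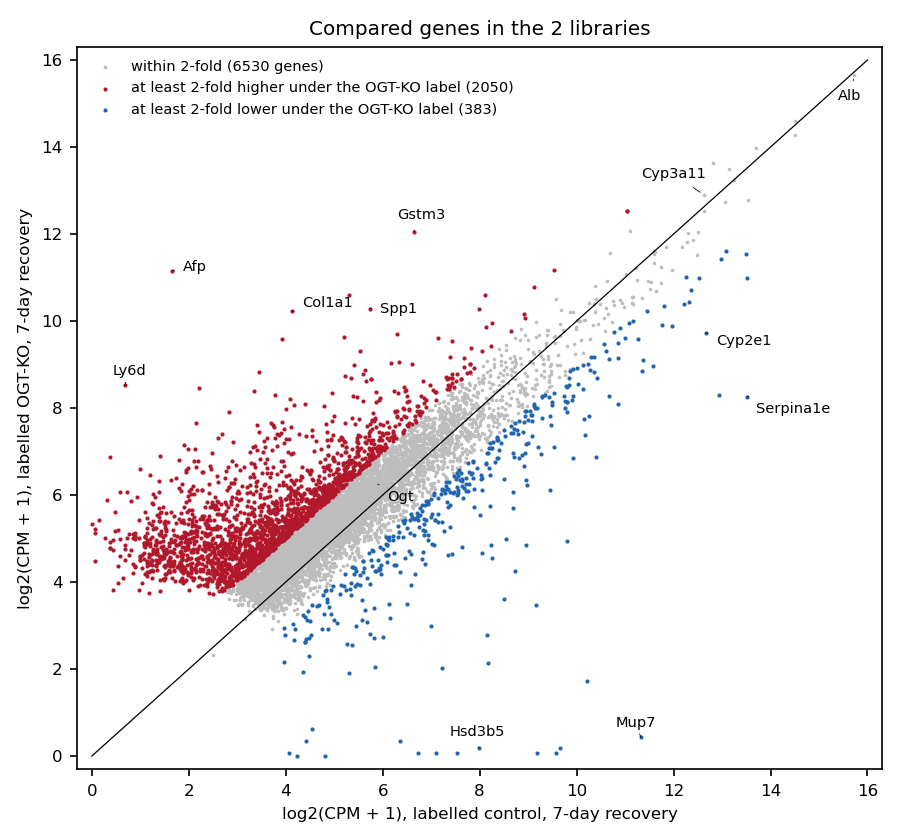
Each point is 1 of the 8963 compared genes, with log2(CPM + 1) in the control-labelled library on the x axis and in the OGT-KO-labelled library on the y axis, and the line marks equal values. The 2050 genes at least 2-fold higher lie above the band of 6530 genes within 2-fold and the 383 lower genes include a group near 0 on the y axis.

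The largest difference upward was that of Afp, alpha-fetoprotein, the albumin relative that the fetal liver secretes, with 2272 against 2.15 CPM (9.49). The library labelled OGT-KO held 51268 reads of it and the control-labelled library 43 reads, and the 95% counting interval of the log2 ratio was 9.61 to 10.51. Ly6d, a cell surface protein gene of the Ly6 family, followed with 366 against 0.601 CPM (7.84). Of the 15 largest differences upward among genes that averaged 50 CPM or more, 7 were matrix genes. These were Eln with 351 against 3.605 CPM (6.26), Col1a1 with 1192 against 16.5 CPM (6.09), Col1a2 with 769 against 14.3 CPM (5.66), Col6a3 with 453 against 9.86 CPM (5.39), Col3a1 with 1549 against 38.4 CPM (5.30), Col5a2 with 142 against 2.75 CPM (5.25) and Fbn1 with 110.1 against 2.45 CPM (5.01). The secreted or surface proteins Fstl1, Ccdc80 and Cd24a had 202 against 3.45 CPM (5.51), 239.6 against 6.16 CPM (5.07) and 133 against 2.95 CPM (5.08). The glutathione transferases Gsta1 and Gstm3 had 118 against 1.65 CPM (5.48) and 4248 against 98.8 CPM (5.41), and the membrane-binding Anxa2 had 332 against 9.21 CPM (5.03).

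Downward, 10 of the 15 largest differences belonged to Mup genes, which encode the major urinary proteins that carry pheromones. Mup7 had 0.354 against 2561 CPM (-10.89), and Mup14 had 2.304 against 1179 CPM (-8.48). Mup22 had 3.41 against 286 CPM (-6.02) and Mup18 had 0.266 against 81.3 CPM (-6.02). In the OGT-KO-labelled library, Mup11, Mup17, Mup1, Mup16 and Mup12 each had 1 read and Mup15 had 3 reads. The 95% counting interval of the log2 ratio was -19.37 to -11.59 for Mup11 and -16.51 to -8.73 for Mup12. Reads of these near-identical copies may be split between them, and the way such reads were counted is not given in the sources used here, so the family is also given as a sum. The summed value of the 19 Mup genes listed was 1976 CPM in the OGT-KO-labelled library and 18099 CPM in the control-labelled library. Mup20 and Mup3, chosen after their values were seen, made up most of the sum in the OGT-KO-labelled library, with 1641 against 3189.8 CPM (-0.96) and 315 against 7797 CPM (-4.63), and the other 17 summed to 20.2 against 7112 CPM. Of the 15 compared Mup genes, 14 were at least 2-fold lower, and 12 of these had passed the filter only through control-labelled libraries. The remaining large differences downward were those of Hsd3b5, Sult2a8, Slco1a1, Serpina1e and Slc1a2. Hsd3b5, of the hydroxysteroid dehydrogenase family and the male liver, had 0.133 against 253 CPM (-7.81). Its 95% counting interval of the log2 ratio was -13.17 to -9.34, from 3 reads in the OGT-KO-labelled library. Sult2a8, a bile acid sulfotransferase, had 10.01 against 569.5 CPM (-5.69), and Slco1a1, an organic anion importer, had 5.85 against 282 CPM (-5.37). Serpina1e, an alpha-1-antitrypsin copy, had 306 against 11735 CPM (-5.26), and Slc1a2, a glutamate importer, had 3.06 against 148 CPM (-5.20).

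The promoters of Afp and of Alb, which lie next to each other in the albumin gene cluster, are shown because Afp had the largest difference upward while Alb, the most abundant transcript in both libraries by share of reads (5.15% and 5.44%), differed by -0.08. Both windows run from 250 bases before to 50 bases after the RefSeq start, on GRCm38.p6, which is not the build named for the deposited files (GRCm39). Afp is taken from chr5:90490464-90490763 on the plus strand and Alb from chr5:90460620-90460919 on the plus strand, with the TATA box letters TATAAA and the letters GTTAAT, on either strand, in capitals.
Afp: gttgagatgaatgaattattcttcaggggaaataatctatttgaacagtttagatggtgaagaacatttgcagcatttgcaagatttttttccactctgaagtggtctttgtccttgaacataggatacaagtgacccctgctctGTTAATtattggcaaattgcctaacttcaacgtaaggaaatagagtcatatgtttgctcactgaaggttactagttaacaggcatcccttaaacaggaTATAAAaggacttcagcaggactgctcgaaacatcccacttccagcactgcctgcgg
Alb: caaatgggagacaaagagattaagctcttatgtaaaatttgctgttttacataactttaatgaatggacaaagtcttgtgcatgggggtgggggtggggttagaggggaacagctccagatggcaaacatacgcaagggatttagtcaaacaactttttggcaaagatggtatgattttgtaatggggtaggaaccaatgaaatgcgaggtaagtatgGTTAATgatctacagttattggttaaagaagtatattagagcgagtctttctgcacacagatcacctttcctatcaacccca
Afp holds 1 match of each motif. Alb holds 1 match of GTTAAT, and TATAAA is not among the letters of this window. GTTAAT was found in 7.10% of all 32851 RefSeq windows of this length, in 4.69% of those of compared genes, in 13.3% of the 361 windows of genes at least 2-fold lower and in 34.2% of the 38 windows of hepatocyte plasma protein genes, whose Serpina1a to Serpina1e copies share sequence. TATAAA was found in 13.6% of all windows and in 31.6% of those of plasma protein genes.

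Transcripts of proteins that hepatocytes secrete into plasma were lower or differed little. Of 36 compared plasma protein genes, 2 were higher by 2-fold or more and 13 lower, with a median of -0.54 beside 0.48 for all compared genes. Alb had 51507 against 54434 CPM (-0.08) and Ttr, which carries thyroxine and retinol-binding protein, had 4249 against 5772 CPM (-0.44). Apoa1, the main protein of high-density lipoprotein, had 2964 against 11579 CPM (-1.97), and Pon1, a lactonase carried on the same particles, had 123 against 489.6 CPM (-1.98). The alpha-1-antitrypsin copy Serpina1d had 499.9 against 3052 CPM (-2.61), and Fetub, a protease inhibitor, had 193 against 712 CPM (-1.88). Apoa4, a lipoprotein gene, stood apart from these with 781 against 139.5 CPM (2.48).

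Coagulation factors were shifted as a group. None of the 23 compared members was 2-fold higher and 13 were at least 2-fold lower (median -1.03). Klkb1, plasma prekallikrein, had 23.6 against 161 CPM (-2.72). The fibrinogen chains Fgb, Fgg and Fga had 2734 against 8066 CPM (-1.56), 2028 against 5888 CPM (-1.54) and 3111 against 8649.5 CPM (-1.48), and these encode the 3 subunits of the protein. F9, the factor missing in haemophilia B, had 68.1 against 187 CPM (-1.45). Prothrombin, F2, had 920.4 against 1912 CPM (-1.05), and Serpinc1, antithrombin, had 1369 against 1951 CPM (-0.51). Complement genes were lower in part, with 9 of 19 at least 2-fold lower and 0 higher (median -0.98). The lower members included pore-forming components. C8b had 73.6 against 502 CPM (-2.75), C6 had 114 against 448 CPM (-1.96), C8a had 292 against 962 CPM (-1.71), Hc, which encodes C5, had 376 against 1039 CPM (-1.46), and C9 had 311 against 854 CPM (-1.45). C3, on which all complement pathways meet, had 11520.1 against 9013 CPM (0.35).

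Acute-phase genes went both ways, 4 higher and 6 lower of 21 compared (median -0.68), beside 22.9% and 4.27% of all compared genes. Only through OGT-KO-labelled libraries had 3 of the 4 higher acute-phase genes passed the filter, and 2 of 19 members with 10 CPM or more in the control-labelled library were higher. Saa1 and Saa2, the inducible serum amyloids, had 28.1 against 498 CPM (-4.10) and 18.1 against 425 CPM (-4.48). Serpina3k, a kallikrein-binding protein, had 2025 against 11668 CPM (-2.53). Lcn2, which binds bacterial siderophores, had 406 against 52.8 CPM (2.92), and Il1rn, the interleukin 1 receptor antagonist, had 43.03 against 3.004 CPM (3.46). Hamp2, a hepcidin copy, had 63.8 against 10.1 CPM (2.55). Orm1 had 615 against 1115 CPM (-0.86) and Hp, haptoglobin, had 2300.3 against 4017 CPM (-0.80). With median-ratio scaling 12 acute-phase genes and 14 complement genes were at least 2-fold lower.

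Amino acid enzymes were lower in part. Of 39 compared genes of amino acid catabolism, 17 were at least 2-fold lower and 1 higher (median -0.89). Hal, which starts histidine breakdown, had 117 against 417 CPM (-1.82). Haao, of the kynurenine pathway, had 142 against 494 CPM (-1.79), and Tdo2, which opens the indole ring of tryptophan, had 347 against 1124 CPM (-1.69). Dpys, of pyrimidine breakdown, had 60.4 against 199 CPM (-1.71) and Prodh2, hydroxyproline dehydrogenase, had 62.6 against 186 CPM (-1.55). Tat, tyrosine aminotransferase, had 823 against 599.6 CPM (0.46). Of the urea cycle and ammonia genes, 3 of 12 were at least 2-fold lower and 0 higher. Glul, the glutamine synthetase of pericentral hepatocytes, had 166 against 1150.2 CPM (-2.78). Otc had 168 against 442 CPM (-1.39) and Arg1 had 511 against 1122 CPM (-1.13), whereas Cps1 and Ass1 had 2982 against 3093 CPM (-0.05) and 3101 against 3097 CPM (0.00). These are cycle enzymes, and the last pair differed by no more than 0.05 on the log2 scale. With median-ratio scaling the lower genes numbered 28 for amino acid catabolism and 6 for the urea cycle.

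The methionine cycle and phosphatidylcholine synthesis are the routes that the CDE diet bears on directly. Of their 27 compared genes, 4 were at least 2-fold higher and 8 lower (median -0.19), beside 22.9% and 4.27% of all compared genes. Of the 4 higher genes, 2 had passed the filter only through OGT-KO-labelled libraries, and 2 were higher under every scaling. With at least 10 CPM in the control-labelled library 2 of 25 were higher, beside 13.5% of all such genes. Mat1a, the adult hepatocyte S-adenosylmethionine synthetase, had 567 against 1848 CPM (-1.70), and Ahcy, which splits S-adenosylhomocysteine, had 309 against 966 CPM (-1.64). Chpt1, which makes phosphatidylcholine from CDP-choline, had 46.3 against 139.5 CPM (-1.57). Bhmt, which uses betaine to remethylate homocysteine, had 1361 against 2271 CPM (-0.74), and Pemt, which methylates phosphatidylethanolamine, had 196 against 197 CPM (-0.01). On the other side, the choline transporter-like gene Slc44a2 had 46 against 5.61 CPM (2.83).

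Sugar metabolism differed by isozyme. Pkm, the pyruvate kinase gene of most tissues, had 97.8 against 11.3 CPM (3.01), and Pklr, that of the hepatocyte, had 45.7 against 257 CPM (-2.47). Hk1, a hexokinase gene, had 25.9 against 3.45 CPM (2.59) and Hk2, below the filter, had 8.995 against 0.751 CPM. The pentose phosphate enzymes G6pdx and Pgd had 36.7 against 5.11 CPM (2.63) and 285 against 47.01 CPM (2.57). Pfkp, the platelet-type phosphofructokinase gene, had 33.6 against 6.36 CPM (2.23). Of 18 compared genes on this list 8 were at least 2-fold higher and 2 lower, and 3 of the higher ones passed the filter only through the OGT-KO-labelled libraries. Gluconeogenesis and glycogen genes had 1 higher and 5 lower of 18. Pck1, which makes phosphoenolpyruvate, had 876 against 1533 CPM (-0.81), G6pc, the glucose 6-phosphatase that releases glucose, had 82.7 against 156 CPM (-0.91), and Gys2, liver glycogen synthase, had 59.4 against 126 CPM (-1.08). Ppp1r3b, which brings phosphatase to glycogen, had 32.9 against 99.7 CPM (-1.57) and Slc37a4, the glucose 6-phosphate transporter, had 42.1 against 118 CPM (-1.46). Igfbp1, an insulin-repressed gene, had 92.1 against 21.3 CPM (2.06). With median-ratio scaling 10 gluconeogenesis and glycogen genes were lower.

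Lipid genes were mixed. Among 39 compared genes of lipogenesis and lipid storage, 6 were at least 2-fold higher and 9 lower (median -0.21). Of all compared genes, 22.9% were higher and 4.27% lower. Of the 6 higher lipogenesis and storage genes, 3 had passed the filter only through OGT-KO-labelled libraries. With at least 10 CPM in the control-labelled library 3 of 35 were higher, beside 13.5% of all such genes. The 2 stearoyl-CoA desaturases went opposite ways, Scd2 with 169 against 5.46 CPM (4.72) and Scd1 with 1389.6 against 5136 CPM (-1.89). Elovl3, an elongase, had 24.2 against 264 CPM (-3.39) and Thrsp, a lipogenic nuclear protein, had 10.2 against 90.2 CPM (-3.03). Lpl, lipoprotein lipase, had 322 against 29.9 CPM (3.39) and Cidec, a lipid droplet protein, had 45.1 against 4.31 CPM (3.12). Fabp1, the liver fatty acid-binding protein, had 949 against 3994 CPM (-2.07), and Fasn, fatty acid synthase, had 331 against 453 CPM (-0.45). Fatty acid oxidation had 3 of 35 higher and 3 lower (median -0.21). Of the 3 higher genes, 2 had passed the filter only through OGT-KO-labelled libraries, and among members with at least 10 CPM in the control-labelled library 0 of 31 were higher. The 3 higher genes were the PPARα targets Pdk4 with 33.9 against 3.45 CPM (2.97), Acot2 with 26.4 against 2.95 CPM (2.79) and Cyp4a14 with 52.7 against 8.16 CPM (2.55). Ppara itself had 30.2 against 58.2 CPM (-0.92) and Cpt1a, the gate of mitochondrial import, had 258 against 352 CPM (-0.45). Etfdh, an electron carrier of beta-oxidation, had 75.7 against 208 CPM (-1.45). Cholesterol synthesis and uptake had no member 2-fold higher and 7 of 28 lower (median -0.50). Hsd17b7 and Tm7sf2, of the late steps, had 18.7 against 60.4 CPM (-1.64) and 42.2 against 105 CPM (-1.29). Sqle, squalene epoxidase, had 52.6 against 96.98 CPM (-0.87). With median-ratio scaling the lower genes numbered 14 for lipogenesis, 9 for fatty acid oxidation and 14 for cholesterol.

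Bile acid genes were lower at several steps of synthesis and import. Of 30 compared, 11 were at least 2-fold lower and 2 higher (median -0.51). Cyp7a1, which sets the rate of the classic pathway, had 74.5 against 94.5 CPM (-0.34). Cyp8b1, needed for cholic acid, had 51.05 against 412 CPM (-2.99), and Cyp7b1, of the alternative pathway, had 30.7 against 372 CPM (-3.56). Slc10a1, the sodium-coupled importer, had 99.9 against 483 CPM (-2.26), and the ligase Slc27a5, which forms the CoA esters before conjugation, had 238 against 898 CPM (-1.91). The 2 higher genes were the basolateral exporter Abcc4 with 45.02 against 2.25 CPM (3.82) and the drug efflux pump Abcb1a with 34.3 against 3.104 CPM (3.10). Both passed the filter only through the OGT-KO-labelled libraries.

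Cytochromes P450 of families 1 to 3 had 5 higher and 12 lower genes of 29 compared (median -0.79). Of all compared genes, 22.9% were higher and 4.27% lower. Cyp2e1, which oxidizes ethanol and paracetamol, had 849 against 6469.6 CPM (-2.93). Cyp2c54, Cyp2j5 and Cyp2d40 had 27.1 against 197 CPM (-2.82), 80.2 against 497 CPM (-2.62) and 3.102 against 56.5 CPM (-3.81), and Cyp2f2 had 270 against 1854 CPM (-2.77). Cyp2a4, a female-biased testosterone hydroxylase gene, had 193 against 9.66 CPM (4.19), and Cyp2a5, its close copy, had 1751 against 559.7 CPM (1.64). Cyp2, Cyp3a, Cyp4a, Ces, Gsta, Gstm, Serpina1 and tubulin genes have near-identical copies, so that single values in these families are uncertain where reads could be split between them. Cyp1a2 had 508 against 776 CPM (-0.61) and Cyp3a11, a main drug-oxidizing enzyme, had 7666 against 6299 CPM (0.28). Among further drug and lipid enzymes, 7 of 12 carboxylesterases were at least 2-fold lower and none higher. Of 11 Cyp4 genes, 6 were lower and 2 higher. Ces3b had 30 against 887 CPM (-4.84) and Ces3a had 463 against 2593 CPM (-2.48), and Cyp4a12b had 20.4 against 116 CPM (-2.45). Aldo-keto reductases had 4 lower and 1 higher of 11, the higher one being Akr1b3, aldose reductase, with 54.1 against 5.31 CPM (3.13). With median-ratio scaling 18 of the P450 genes of families 1 to 3 were lower.

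Conjugating enzymes went both ways, 10 higher and 9 lower of 40 compared, beside 22.9% higher and 4.27% lower of all compared genes. Of the 10 higher, 3 had passed the filter only through OGT-KO-labelled libraries, and 4 of the 9 lower only through control-labelled libraries. With at least 10 CPM in the control-labelled library 7 of 39 were higher, beside 13.5% of all such genes. Lower were the glucuronosyltransferases Ugt2b1, with 68.6 against 694 CPM (-3.32), Ugt3a1, with 2.75 against 38.7 CPM (-3.40), and Ugt3a2, with 27.96 against 299 CPM (-3.37), and the sulfotransferase Sult5a1, with 0.532 against 22.4 CPM (-3.93). Higher were the glutathione transferases Gsta1 and Gstm3 given above. The sulfotransferase Sult1a1 had 281 against 209.8 CPM (0.42), and Gstp1, a male-biased transferase, had 1263 against 1560.3 CPM (-0.30). Median-ratio scaling put 15 conjugating enzymes at least 2-fold lower. The antioxidant genes that NRF2 activates had 16 of 32 compared members at least 2-fold higher (14 under every scaling) and none lower (median 1.09). With at least 10 CPM in the control-labelled library, 10 of 26 were higher. Nqo1, the quinone reductase, had 51.7 against 4.46 CPM (3.27), Hmox1, which degrades haem, had 71.5 against 16.02 CPM (2.09), and Gclc, which limits glutathione synthesis, had 682 against 299 CPM (1.19). Srxn1, which repairs peroxiredoxins, had 506 against 41.7 CPM (3.57). The cystine importer Slc7a11 had 36.5 against 0.0501 CPM (5.16) with 1 read in the control-labelled library and a 95% counting interval of the log2 ratio of 7.03 to 14.81, and the carbonyl reductase Cbr3 had 30.6 against 0.501 CPM (4.4). The core of the antioxidant response element, TGACNNNGC on either strand, was found in 35.7% of the 42 promoter windows of this list, beside 14.6% of the windows of compared genes and 14.7% of those of genes at least 2-fold higher.

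Zonation lists held genes of both directions. Pericentral genes had 8 lower and 5 higher of 20 (median -0.64), and periportal genes 6 lower and 3 higher of 20 (median -0.62). Of all compared genes, 4.27% were lower and 22.9% higher. Under every scaling 3 pericentral and 2 periportal genes were higher. Of the 5 higher pericentral genes, 2 had passed the filter only through OGT-KO-labelled libraries, and 2 of the 8 lower only through control-labelled libraries. Beside Glul, Cyp2e1 and Slc1a2, the pericentral vasopressin receptor gene Avpr1a had 4.96 against 37.6 CPM (-2.69) and Cyp2c29 had 226 against 1218 CPM (-2.43). Slc1a4, a neutral amino acid transporter, had 71.4 against 6.16 CPM (3.34) and Nkd1, a Wnt feedback gene, had 20.8 against 4.86 CPM (1.90). Axin2, the standard Wnt target, had 18.3 against 13.1 CPM (0.45). On the periportal list Pigr, the polymeric immunoglobulin receptor, had 117 against 1343 CPM (-3.51), while Cdh1, E-cadherin, had 337 against 74.4 CPM (2.16) and Aldh1b1 had 359.5 against 85.9 CPM (2.05). Of the transcription factors and nuclear receptors that keep hepatocyte identity, 1 of 33 was at least 2-fold higher and 2 were lower (median -0.02). Hnf4a had 458 against 864 CPM (-0.91) and Cebpa had 265 against 557 CPM (-1.07). Onecut1, or HNF6, had 16.04 against 50.4 CPM (-1.59), and Gata6 had 33.4 against 7.36 CPM (2.04). Under median-ratio scaling 12 pericentral genes were lower, as were 11 periportal genes, and 12 of the transcription factors and receptors were at least 2-fold lower.

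**Figure D2:**
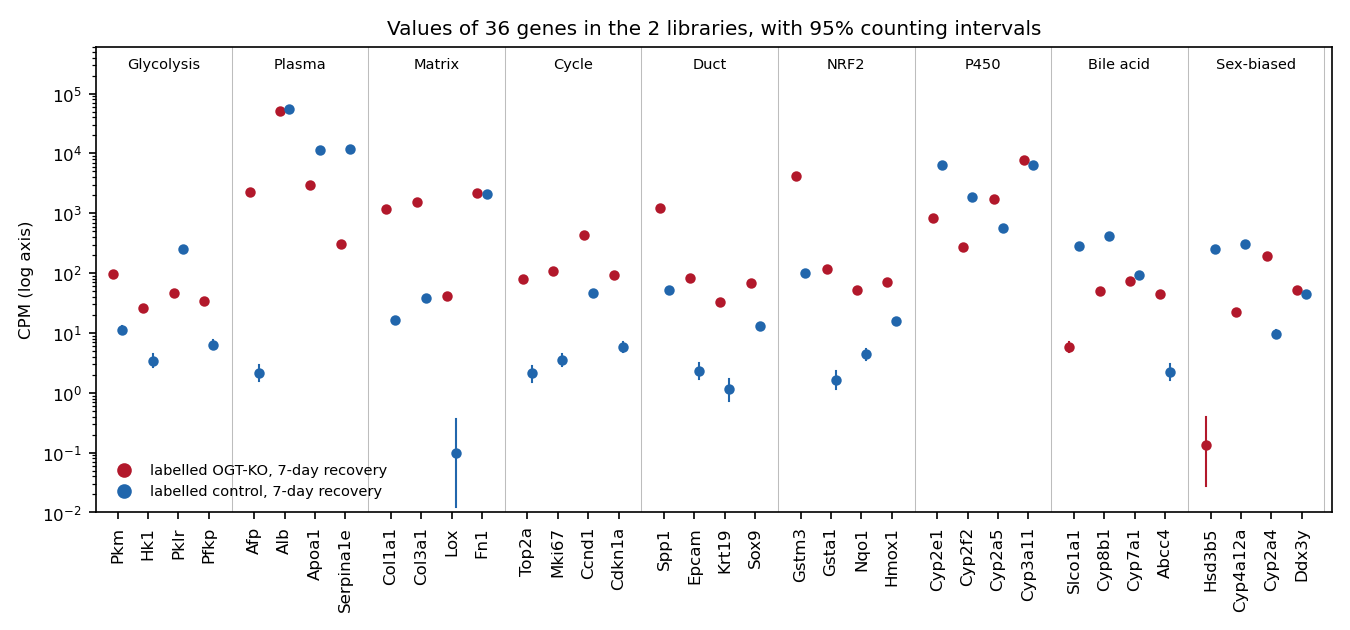
CPM on a log axis of 36 genes named in the text, in the OGT-KO-labelled library (red) and the control-labelled library (blue), with bars for the 95% exact counting interval of each library, which cover counting error only. Alb, Fn1, Cyp3a11, Cyp7a1 and Ddx3y lie close together in both libraries, whereas Afp, Lox and Hsd3b5 are among those furthest apart.

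Most male-biased liver genes were lower, while the Y-linked genes lay within 2-fold. Of 23 compared male-biased genes, 21 were at least 2-fold lower, 7 of them with the filter passed only through control-labelled libraries, and none was higher (median -3.11). Beside Mup7, Hsd3b5 and Slco1a1, Cyp4a12a, an arachidonic acid hydroxylase, had 22.3 against 304 CPM (-3.71), and Elovl3 had 24.2 against 264 CPM (-3.39). Moxd1, a monooxygenase-like gene, had 0 reads in the OGT-KO-labelled library and 27.2 CPM in the control-labelled library, which was at least 205-fold lower when 3 reads per library were taken as the floor. Of 21 listed female-biased genes, 5 passed the filter, 4 of them only through the OGT-KO-labelled libraries, and all 5 were at least 2-fold higher. Without the filter 17 of the 21 were at least 2-fold higher, beside 32.3% of all genes. Most others averaged under 10 CPM, such as Cyp2b9 with 9.17 against 0.2503 CPM and Cyp3a41a with 2.35 against 0 CPM. Abcd2 and Rtn4 had 24.6 against 3.15 CPM (2.63) and 197 against 42.3 CPM (2.19). The Y-linked genes Ddx3y and Kdm5d had 51.6 against 45.4 CPM (0.18) and 17.4 against 15.6 CPM (0.14), Uty had 13.6 against 10.7 CPM (0.32) and Eif2s3y had 35.9 against 46.4 CPM (-0.36). The 4 summed to 118 CPM in either library, so that Y-linked transcripts were present in both pools. The growth hormone and IGF axis, which sets much of this bias, had 5 higher and 2 lower of 17. Of all compared genes, 22.9% were higher and 4.27% lower. Ghr, the growth hormone receptor, had 124 against 409.8 CPM (-1.72), Igfals, the acid-labile subunit of circulating IGF complexes, had 40.5 against 141 CPM (-1.77), and Igf1 had 469 against 569 CPM (-0.28). Igfbp7 and Igfbp3 had 467 against 48.6 CPM (3.24) and 69.7 against 10.2 CPM (2.66).

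Most markers of the fetal liver and of liver tumours had under 10 CPM in the control-labelled library, where 2 of 21 reached it. Among 21 listed, 11 passed the filter and 10 of these were at least 2-fold higher, but 9 had passed only through the OGT-KO-labelled libraries. Without the filter 18 of 21 were at least 2-fold higher, beside 32.3% of all genes. The list summed to 3079 CPM in the OGT-KO-labelled library and 70.5 CPM in the control-labelled library, mostly through Afp. Gpc3, glypican 3, had 55.1 against 1.35 CPM (4.58), Sox4 had 91.9 against 3.91 CPM (4.24), Golm1 had 100.2 against 4.41 CPM (4.23) and Cd44, the hyaluronan receptor, had 72.4 against 3.25 CPM (4.11). Igf2 had 2.92 CPM in the OGT-KO-labelled library and 0 reads in the control-labelled library.

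Most duct and progenitor markers were higher. Of 23 compared, 19 were at least 2-fold higher, all of them under every scaling, and none lower (median 3.58). Only through OGT-KO-labelled libraries had 13 of the 19 higher duct markers passed the filter, and 6 of 10 members with 10 CPM or more in the control-labelled library were higher. Spp1, osteopontin, had 1245 against 52.1 CPM (4.55). The surface protein Epcam had 82.6 against 2.35 CPM (4.64) and Prom1 had 60.7 against 1.45 CPM (4.65). Krt19 had 32.6 against 1.15 CPM (3.96), and Krt7, another duct keratin, had 28.6 against 1.101 CPM (3.82). Sox9, the duct transcription factor, had 68.3 against 12.9 CPM (2.32). Tspan8 and Ehf had 60.6 against 0.901 CPM (5.02) and 54.2 against 1.402 CPM (4.52). Cldn4 and St14 had 26.5 against 0.3004 CPM (4.4) and 43.3 against 1.202 CPM (4.33). Of the 6 compared keratins all were at least 2-fold higher, including Krt8 and Krt18, which hepatocytes also make, with 1545 against 275 CPM (2.48) and 1247 against 254 CPM (2.29). Of the 6 higher keratins, 4 had passed the filter only through OGT-KO-labelled libraries, and among members with at least 10 CPM in the control-labelled library 2 of 2 were higher. Krt20 had 33.7 against 0.0501 CPM (5.05) with 1 read in the control-labelled library and a 95% counting interval of the log2 ratio of 6.91 to 14.70. A narrower list of 9 cholangiocyte markers summed to 279 against 11.4 CPM, and none of its defining markers was at 0 in the control-labelled library, where Krt7, Krt19 and Cftr had 1.101, 1.15 and 0.3505 CPM. In bulk tissue more cells of a type and more RNA per cell cannot be told apart.

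Most genes of the fibrous matrix were higher. Of 40 compared collagens and matrix glycoproteins, 36 were at least 2-fold higher under every scaling (median 3.64), 21 of which had passed only through the OGT-KO-labelled libraries. Among members with at least 10 CPM in the control-labelled library, 12 of 16 were higher. Fn1, fibronectin, which hepatocytes also secrete, had 2176 against 2069 CPM (0.07). Of the enzymes and inhibitors that remodel matrix, 20 of 25 compared were at least 2-fold higher and none lower (median 2.95). The filter was passed only through OGT-KO-labelled libraries by 12 of the 20 higher genes, and 7 of the 12 members that reached 10 CPM in the control-labelled library were higher. Lox, the collagen and elastin crosslinker, had 41.9 against 0.1001 CPM (5.28) with 2 reads in the control-labelled library, and a 95% counting interval of the log2 ratio of 6.85 to 11.76. Loxl1 had 69.9 against 3.104 CPM (4.11) and Loxl2 had 47.01 against 1.903 CPM (4.05). The gelatinase Mmp2 had 94.4 against 2.85 CPM (4.63), Mmp7, matrilysin, had 35.01 against 0.401 CPM (4.68) and Mmp12, the macrophage elastase, had 26.01 against 0.601 CPM (4.08). Timp1, an inhibitor of these, had 15.3 against 0.3004 CPM, below the filter. Serpinh1, the collagen chaperone, had 199 against 11.9 CPM (3.96).

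Of the TGF-beta and PDGF pathways, which drive these genes in myofibroblasts, 17 of 19 compared members were at least 2-fold higher (15 under every scaling) and none lower. Of the 17 higher pathway genes, 11 had passed the filter only through OGT-KO-labelled libraries, and among members with at least 10 CPM in the control-labelled library 5 of 7 were higher. Among the ligands, Tgfb1 had 44.1 against 6.66 CPM (2.56), Tgfb3 had 32.3 against 0.851 CPM (4.17) and Pdgfb had 20.4 against 0.801 CPM (3.57). Among the receptors, Tgfbr2 had 137 against 36.7 CPM (1.88), Pdgfrb had 130.2 against 9.66 CPM (3.62) and Pdgfra had 52.2 against 2.75 CPM (3.82). Ltbp2, of the family that stores latent ligand in matrix, had 95.4 against 1.001 CPM (5.59). Targets of the Hippo effector YAP had 15 of 22 at least 2-fold higher (14 under every scaling) and none lower, and with at least 10 CPM in the control-labelled library 8 of 14. Ccn2, connective tissue growth factor, had 66.7 against 3.004 CPM (4.08), and Ccn1 had 41.03 against 11.8 CPM (1.72). Ankrd1, below the filter, had 12.5 against 0.2003 CPM. Nt5e, the ecto-5'-nucleotidase CD73, had 50.7 against 1.602 CPM (4.31), Myof had 47.7 against 2.103 CPM (3.97) and Axl, a receptor kinase, had 125 against 10.6 CPM (3.45).

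Most genes of the cytoskeleton were higher. Of actins, tubulins and their partners, 20 of 22 compared were at least 2-fold higher (17 under every scaling), and of those with at least 10 CPM in the control-labelled library 15 of 17. Actb had 2300 against 742 CPM (1.63), Tuba1a had 34.8 against 3.15 CPM (3.11) and Tubb6 had 85.4 against 15.1 CPM (2.43). Flna, filamin A, had 272 against 20.1 CPM (3.69), Tmsb10, a thymosin, had 203 against 14.1 CPM (3.75), and Ezr, ezrin, had 82.9 against 5.76 CPM (3.63). Annexins and S100 proteins had 9 higher of 14 and none lower. Only through OGT-KO-labelled libraries had 4 of the 9 higher genes of this list passed the filter, and 4 of 9 members with 10 CPM or more in the control-labelled library were higher. S100a11 had 125 against 4.61 CPM (4.49), S100a6 had 23.5 against 1.05 CPM (3.58) and Anxa3 had 34.3 against 3.25 CPM (3.05). Junction genes had 9 higher (6 under every scaling) and 1 lower of 20. Of the 9 higher junction genes, 4 had passed the filter only through OGT-KO-labelled libraries. With at least 10 CPM in the control-labelled library 5 of 16 were higher, beside 13.5% of all such genes. The gap junction genes Gja1 and Gjb1 had 40.3 against 2.75 CPM (3.46) and 419 against 800.1 CPM (-0.93), the second being the main connexin of hepatocytes. Tjp1 had 76.2 against 33.6 CPM (1.16), Cldn1 had 104 against 64.8 CPM (0.67) and Cldn7 had 24.3 against 1.101 CPM (3.59).

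**Figure D3:**
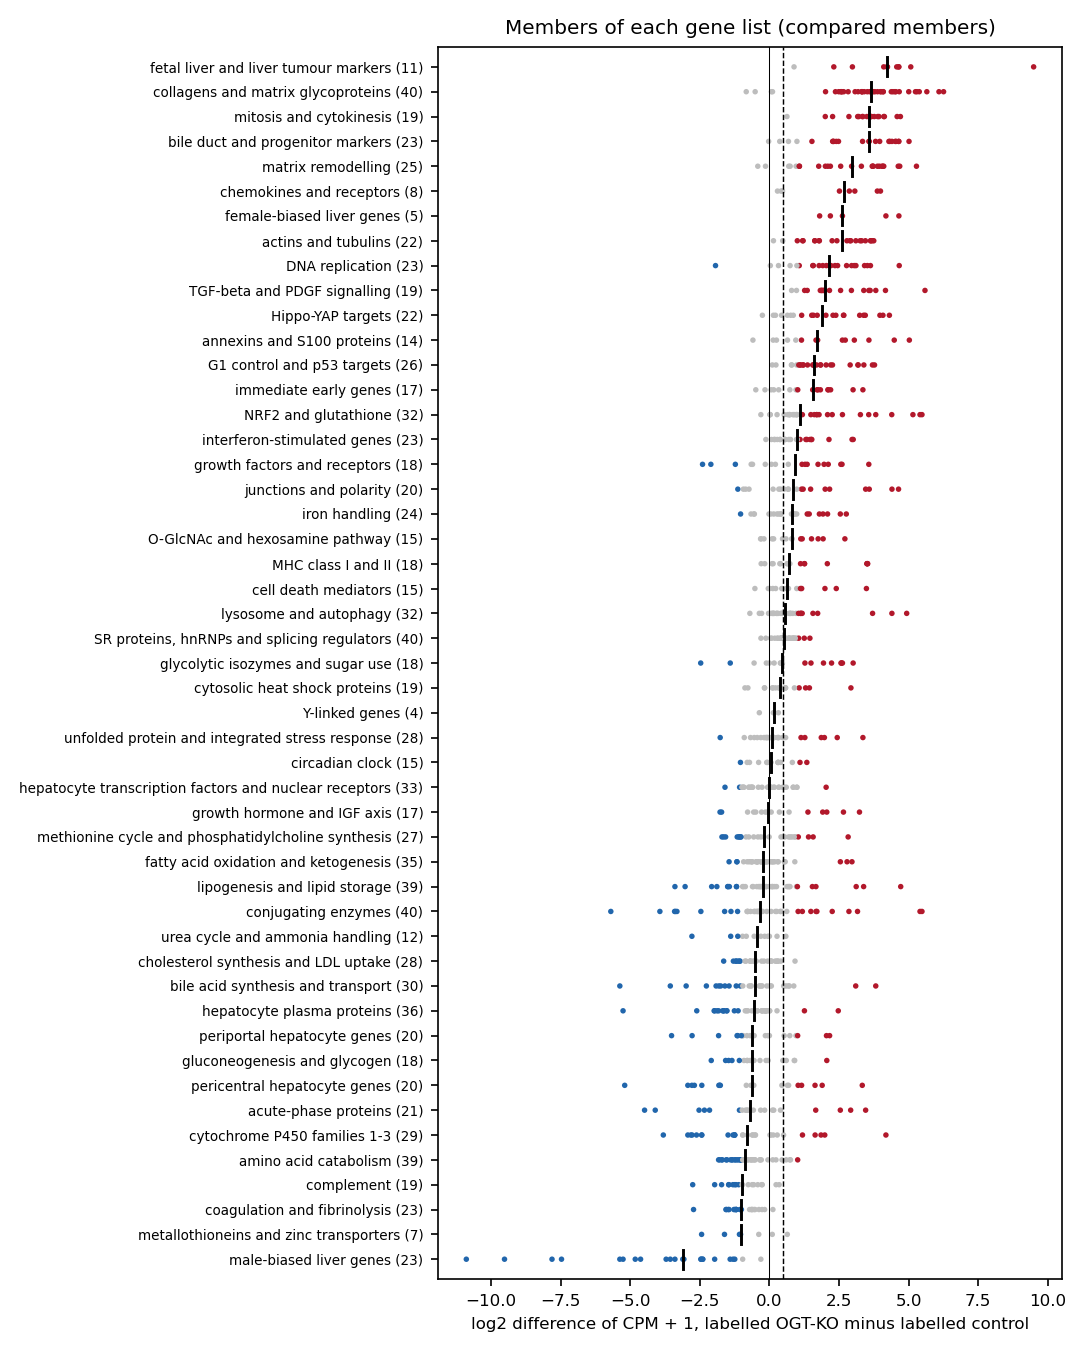
Each point is a compared gene, placed by its log2 difference of CPM + 1 (labelled OGT-KO minus labelled control) in the row of its list, with the number of compared genes in parentheses. The black bar is the list's median, the dashed line the median of all compared genes (0.48), red marks genes at least 2-fold higher and blue genes at least 2-fold lower. Lists are ordered by median, from 4.24 for fetal liver and liver tumour markers to -3.11 for male-biased genes. This order depends on the filter. Of the 11 compared fetal liver and tumour markers, 9 had passed it only through OGT-KO-labelled libraries. Over all 21 listed markers of this list the median was 2.32, and over all listed mitosis genes it was 3.54.

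Of 35 listed genes of mitosis, 34 were at least 2-fold higher without the filter, and none was lower, beside 32.3% of all genes. With the filter 18 of 19 were higher, and all 18 of these had passed only through the OGT-KO-labelled libraries. The list summed to 1069 CPM in the OGT-KO-labelled library and 78.4 CPM in the control-labelled library. Top2a, which untangles replicated DNA, had 80.1 against 2.103 CPM (4.71). Mki67, the proliferation antigen Ki-67, had 109 against 3.55 CPM (4.59), and Cdk1, the mitotic kinase, had 41.4 against 1.85 CPM (3.89). Ube2c, which works with the anaphase-promoting complex, had 43.96 against 1.602 CPM (4.11), Tpx2, a spindle protein, had 41.1 against 1.402 CPM (4.13), and Racgap1, of the central spindle, had 36.6 against 1.45 CPM (3.94).

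Promoters of Cdk1, Top2a and Mki67 are shown because these genes differed together. Mitotic genes are known for a cell cycle homology region and for CCAAT boxes bound by NF-Y. The windows are chr10:69352863-69353162 on the minus strand for Cdk1, chr11:99024140-99024439 on the minus strand for Top2a and chr7:135716330-135716629 on the minus strand for Mki67, on GRCm38.p6. Capitals mark CCAAT and TTTGAA on either strand, so that ATTGG and TTCAAA are the same motifs read on the other strand.
Cdk1: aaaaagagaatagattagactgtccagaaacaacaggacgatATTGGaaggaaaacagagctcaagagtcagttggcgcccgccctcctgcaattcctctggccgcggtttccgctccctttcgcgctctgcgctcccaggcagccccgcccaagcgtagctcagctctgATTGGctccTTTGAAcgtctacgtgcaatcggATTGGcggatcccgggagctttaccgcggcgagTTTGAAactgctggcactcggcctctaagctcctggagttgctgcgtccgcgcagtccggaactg
Top2a: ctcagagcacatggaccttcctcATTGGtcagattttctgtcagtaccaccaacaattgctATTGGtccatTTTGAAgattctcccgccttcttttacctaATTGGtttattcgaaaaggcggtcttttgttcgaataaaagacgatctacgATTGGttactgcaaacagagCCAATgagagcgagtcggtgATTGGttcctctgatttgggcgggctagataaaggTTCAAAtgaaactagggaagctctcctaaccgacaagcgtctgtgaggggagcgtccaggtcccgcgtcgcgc
Mki67: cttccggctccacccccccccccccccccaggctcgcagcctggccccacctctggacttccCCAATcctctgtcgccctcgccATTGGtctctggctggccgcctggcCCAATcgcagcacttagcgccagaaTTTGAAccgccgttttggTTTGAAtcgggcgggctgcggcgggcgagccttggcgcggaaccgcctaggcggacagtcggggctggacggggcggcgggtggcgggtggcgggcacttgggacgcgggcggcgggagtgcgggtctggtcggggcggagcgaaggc
CCAAT was matched 3 times in the Cdk1 window, 6 times in that of Top2a and 3 times in that of Mki67, and TTTGAA 2 times in each. Both motifs were found together in 22 of the 31 windows of the mitosis list (71.0%), in 4.54% of the windows of compared genes and in 6.95% of all windows. Among windows of all genes at least 2-fold higher the share was 4.76%. For DNA replication genes it was 10% of 40 windows, and most of these genes were higher too.

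DNA replication genes had 18 higher and 1 lower of 23 compared (median 2.14). Only through OGT-KO-labelled libraries had 14 of the 18 higher replication genes passed the filter, and 4 of 9 members with 10 CPM or more in the control-labelled library were higher. The helicase subunit Mcm2 had 38.6 against 4.11 CPM (2.96) and Mcm6 had 65.4 against 4.36 CPM (3.63). Rrm2, the ribonucleotide reductase subunit, had 61.1 against 4.81 CPM (3.42) and Pcna, the polymerase clamp, had 55.04 against 17.7 CPM (1.58). Uhrf1, which guides maintenance methylation of DNA, had 35.8 against 0.451 CPM (4.67). The lower gene, named after its value was seen, was Mcm10, with 24.02 against 94.6 CPM (-1.93). The G1 and p53 list had 21 of 26 compared genes at least 2-fold higher (15 under every scaling) and none lower. With at least 10 CPM in the control-labelled library, 11 of 15 were higher. Ccnd1, the G1 cyclin, had 437 against 47.3 CPM (3.18), and Ccnd2 had 52.9 against 4.91 CPM (3.19). The inhibitor Cdkn1a, or p21, had 93.1 against 5.86 CPM (3.78) and the p53 antagonist Mdm2 had 82.3 against 31.2 CPM (1.37). Phlda3 and Tnfrsf10b, both p53 targets, had 27.03 against 1.15 CPM (3.70) and 13.2 against 0.3505 CPM (3.39). Cyclins and the arrest gene Cdkn1a were thus both higher. Cell death mediators had 5 of 15 higher (3 under every scaling). The filter was passed only through OGT-KO-labelled libraries by 4 of the 5 higher mediators. Of the 9 members that reached 10 CPM in the control-labelled library, 1 was higher, beside 13.5% of all such genes. Tnfrsf12a, the TWEAK receptor, had 98.3 against 7.86 CPM (3.49), and Mlkl, which executes necroptosis, had 28.1 against 4.51 CPM (2.40). Casp8 had 36.5 against 31.04 CPM (0.23), Gsdmd had 27.5 against 39.8 CPM (-0.52) and Ripk3, below the filter, had 4.298 against 0.451 CPM.

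Myeloid markers were higher. Of 21 listed markers of monocytes and recruited macrophages all 21 were at least 2-fold higher without the filter, beside 32.3% of all genes. Their sum was 1073 CPM in the OGT-KO-labelled library and 66.2 CPM in the control-labelled library. Of the 14 compared, 11 had passed the filter only through OGT-KO-labelled libraries, and 3 reached 10 CPM in the control-labelled library. Gpnmb and Trem2, which mark lipid-associated macrophages, had 26.5 against 0.3004 CPM (4.4) and 16.2 against 0.551 CPM (3.47). Ccr2, the monocyte chemokine receptor, had 21.8 against 0.751 CPM, Cx3cr1 had 33.6 against 0.801 CPM (4.26) and Cd14 had 39.9 against 1.25 CPM (4.18). Lgals3, galectin 3, had 45.3 against 1.55 CPM (4.18) and Lyz2, lysozyme, had 293 against 15.9 CPM (4.12). Kupffer cell markers summed to 612 against 106 CPM, with Clec4f, which only Kupffer cells make in mouse liver, at 120 against 28.2 CPM (2.05), and 9 of 9 compared were at least 2-fold higher. The filter was passed only through OGT-KO-labelled libraries by 5 of the 9 higher Kupffer cell markers, and 3 of the 3 members that reached 10 CPM in the control-labelled library were higher. Vsig4 was at 37.8 against 6.21 CPM (2.43) and Timd4 at 4.79 against 1.903 CPM. Marco, a scavenger receptor, had 68.3 against 3.505 CPM (3.94). T and NK cell markers summed to 25.7 against 11.7 CPM over 13 genes, of which none passed the filter, and Cd8a had 0 reads in the control-labelled library. Cd3e had 1.11 against 0.3505 CPM. B and plasma cell markers summed to 22.8 against 2.30 CPM, mostly through Jchain with 12.3 against 0.3505 CPM, while Cd79a had 0.6204 against 0.3004 CPM. Neutrophil markers summed to 47.7 against 2.45 CPM over 7 genes, with S100a8 at 10.5 against 0.401 CPM and Cxcr2 at 2.304 against 0.1502 CPM. Dendritic cell markers summed to 53.2 against 12.9 CPM over 10 genes, Flt3 having 0 reads in the control-labelled library, Xcr1 2.08 against 0.401 CPM and Clec9a 3.77 against 2.403 CPM.

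Stellate cell and myofibroblast markers summed to 1314 CPM in the OGT-KO-labelled library and 221 CPM in the control-labelled library, with 16 of 18 compared members at least 2-fold higher. The filter was passed only through OGT-KO-labelled libraries by 10 of the 16 higher markers, and 5 of the 6 members that reached 10 CPM in the control-labelled library were higher. Acta2, smooth muscle actin, had 62.4 against 2.95 CPM (4.0), Des, desmin, had 25.6 against 4.01 CPM (2.41) and Lrat, which stores retinol, had 38.6 against 6.46 CPM (2.41). Endothelial markers summed to 1031 against 465 CPM. There 11 of 22 were at least 2-fold higher, but 5 under every scaling. Stab2, the sinusoidal scavenger receptor, had 52.02 against 33.9 CPM (0.60), Pecam1 had 30.97 against 16.4 CPM (0.88) and Vwf had 19.5 against 8.56 CPM (1.10), whereas Cd34, of capillary endothelium, had 37.04 against 1.502 CPM (3.93). Mesothelial markers summed to 24.5 against 5.06 CPM, with Msln at 5.096 against 1.001 CPM and Upk3b at 4.25 against 2.25 CPM. Of the adipocyte markers only Fabp4, which macrophages share, was among the genes listed, with 18.4 against 5.66 CPM (1.55). Pancreatic acinar markers were absent, 8 of 11 being at 0 in both libraries, including Prss2 and Cpa1, and the acinar-type elastase gene Cela1 had 9.08 against 20.9 CPM (-1.12). Erythroid markers summed to 159 against 270 CPM, Hbb-bs having 80.03 against 60.98 CPM (0.39) and Alas2, the erythroid haem synthesis enzyme, 23.97 against 171 CPM (-2.79). The 12 hepatocyte markers summed to 78064 against 97486 CPM, and Alb, Ttr and Apoa1 were abundant in both libraries, as the liver label has it. These marker lists share members with the lists above, so the differences of the 2 kinds of list are not independent. Epcam, Krt19, Tspan8 and Cldn4 are on both the duct and the cholangiocyte lists. Mmp12 is on both the matrix remodelling and the monocyte lists. The part of cell types in the differences above was not tested.

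**Figure D4:**
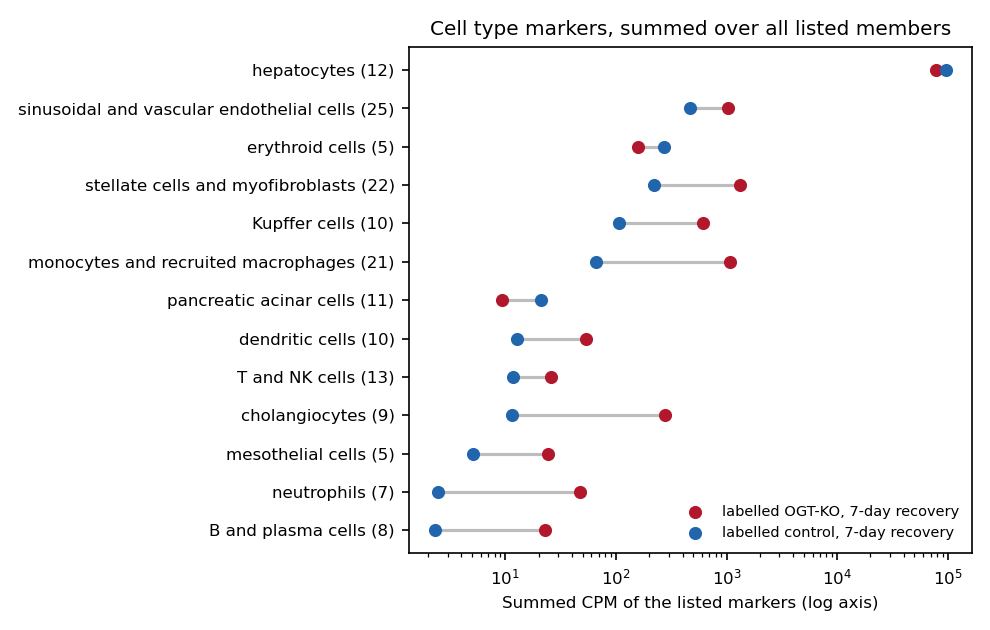
Summed CPM (log axis) of the markers of each cell type, over all listed markers (number in parentheses) without a filter, in the OGT-KO-labelled library (red) and the control-labelled library (blue). Monocyte, cholangiocyte and neutrophil markers show wide gaps, and hepatocyte markers a narrow one.

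Class II genes of antigen presentation were higher. Of 18 compared MHC genes 8 were at least 2-fold higher (5 under every scaling). The class II genes H2-Aa, H2-Ab1 and H2-Eb1 had 157 against 12.8 CPM (3.51), 165 against 13.6 CPM (3.50) and 136 against 10.9 CPM (3.53), and Cd74, their invariant chain, had 425 against 36.1 CPM (3.52). B2m, the class I light chain, had 1402 against 1719 CPM (-0.29), and H2-D1, a heavy chain, had 1149 against 479 CPM (1.26). Chemokine genes had 5 of 8 compared at least 2-fold higher, all 5 having passed only through the OGT-KO-labelled libraries. Cx3cl1, fractalkine, had 34.03 against 1.202 CPM (3.99), Cxcl14 had 40.2 against 1.802 CPM (3.88) and Cxcl16 had 61.2 against 6.41 CPM (3.07). Ccl2, which draws monocytes, had 13.2 against 0.451 CPM and Cxcl10 had 13.8 against 2.15 CPM, both below the filter. Interferon-stimulated genes had 9 of 23 higher and 6 under every scaling. Only through OGT-KO-labelled libraries had 7 of the 9 higher interferon-stimulated genes passed the filter. Among members with 10 CPM or more in the control-labelled library 2 of 15 were higher, beside 13.5% of all such genes. Oasl2 had 35.4 against 3.505 CPM (3.01), Ifi27l2a had 24.5 against 2.25 CPM (2.97), Irf7 had 85.5 against 32.9 CPM (1.35) and Isg15 had 15.8 against 6.81 CPM (1.10). Lysosome and autophagy genes had 9 of 32 higher, beside 22.9% of all compared genes, and 5 under every scaling, beside 13.4%. Their median of 0.56 was near the 0.48 of all compared genes. With at least 10 CPM in the control-labelled library 7 of 29 were higher, beside 13.5% of all such genes. Cd63, a tetraspanin of late endosomes, had 132 against 3.35 CPM (4.93), and Ctss, the cathepsin of myeloid cells, had 159 against 11.2 CPM (3.71). The cathepsin Ctsb had 1068 against 490.4 CPM (1.12) and Lamp1, of the lysosomal membrane, had 716 against 657 CPM (0.12).

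Growth factors and their receptors went both ways. Egfr had 214 against 1135 CPM (-2.40) and Lifr, the leukaemia inhibitory factor receptor, had 137 against 590.1 CPM (-2.10). Met, the receptor of hepatocyte growth factor, had 60.1 against 57.1 CPM (0.07), and its ligand Hgf had 21.8 against 2.85 CPM (2.57). Osmr, the oncostatin M receptor, had 27.4 against 3.65 CPM (2.61). In all, 9 of 18 compared genes were at least 2-fold higher (6 under every scaling) and 3 lower. Of the 9 higher growth factor and receptor genes, 4 had passed the filter only through OGT-KO-labelled libraries. With at least 10 CPM in the control-labelled library 5 of 14 were higher, beside 13.5% of all such genes. Immediate early genes had 10 of 17 higher (9 under every scaling) and none lower. Of the 10 higher early genes, 4 had passed the filter only through OGT-KO-labelled libraries, and among members with at least 10 CPM in the control-labelled library 5 of 12 were higher. Jun had 93.9 against 20.8 CPM (2.12), Egr1 had 67.6 against 40.2 CPM (0.74), Klf6 had 64.6 against 7.16 CPM (3.01) and Fos, below the filter, had 5.096 against 1.75 CPM. Atf3, which stress also induces, had 17.5 against 0.801 CPM (3.36). Circadian clock genes had 2 higher and 1 lower of 15, the higher ones not under every scaling. The clock activator Arntl had 12.7 against 9.36 CPM (0.40), the repressor Per2 had 16.7 against 13.3 CPM (0.32) and the output gene Dbp had 53.9 against 89.02 CPM (-0.71). Kruppel-like factors had 3 higher and 1 lower of 10, the higher ones having all passed the filter only through OGT-KO-labelled libraries and the lower one being Klf9, a glucocorticoid target, with 53.8 against 166 CPM (-1.61), and Klf2, a flow-induced factor of endothelium, had 15.7 against 4.11 CPM (1.71).

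Stress and iron genes showed differences in single members rather than throughout. Of the unfolded protein and integrated stress responses, 6 of 28 were at least 2-fold higher, beside 22.9% of all compared genes, and 1 was lower. Of the 6 higher genes, 4 had passed the filter only through OGT-KO-labelled libraries. With at least 10 CPM in the control-labelled library 2 of 24 were higher, beside 13.5% of all such genes. The chaperone Hspa5 had 801 against 801 CPM (0.00) and Atf4 had 117 against 134 CPM (-0.20), while Ddit3, or CHOP, had 23.8 against 5.31 CPM (1.98), Trib3 had 38.1 against 6.21 CPM (2.44) and Herpud1, of endoplasmic reticulum degradation, had 86.7 against 297 CPM (-1.77). Cytosolic heat shock proteins had 4 of 19 higher, beside 22.9% of all compared genes, and 1 under every scaling, beside 13.4%. The latter was Cryab with 26.9 against 2.65 CPM (2.93). Of the 4 higher genes, 1 had passed the filter only through OGT-KO-labelled libraries. With at least 10 CPM in the control-labelled library 3 of 17 were higher, beside 13.5% of all such genes. Hsp90aa1 had 291 against 117 CPM (1.30), Hspb1 had 36.3 against 12.8 CPM (1.44) and Hspa1b had 4.03 against 4.66 CPM (-0.17). Iron genes had 7 higher and 1 lower of 24, beside 22.9% and 4.27% of all compared genes. The filter was passed only through OGT-KO-labelled libraries by 4 of the 7 higher iron genes. Of the 20 members that reached 10 CPM in the control-labelled library 4 were higher, beside 13.5% of all such genes. Tfrc, the transferrin receptor, had 45.1 against 16.1 CPM (1.43), Slc40a1, ferroportin, had 130.3 against 71.05 CPM (0.87) and Hamp, hepcidin, had 893 against 677 CPM (0.40). Id1, a BMP target, had 53.4 against 7.01 CPM (2.76). Metallothionein and zinc genes had none higher and 4 lower of 7, which were Slc30a10, a manganese exporter, with 9.53 against 55.9 CPM (-2.43), Mt2 with 52.3 against 162 CPM (-1.61), Mt1 with 109 against 231 CPM (-1.07) and Slc39a14 with 159 against 326 CPM (-1.03).

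Of 76 compared cytosolic ribosomal protein genes 1 was at least 2-fold higher (median 0.54, and 0.04 with median-ratio scaling). Splicing regulators had a median of 0.53, with 3 of 40 at least 2-fold higher, Hnrnpa1, Tra2a and Hnrnph1, and none under every scaling. Clk1, Srsf1 and Esrp2 had 81.5 against 56.7 CPM (0.52), 139.8 against 102 CPM (0.45) and 105 against 129 CPM (-0.30). Mitochondrial ribosomal proteins (73 genes) had a median of 0.37 that turned to -0.13 with median-ratio scaling, and proteasome subunits (37 genes) one of 0.19 that turned to -0.29. Oxidative phosphorylation subunits encoded in the nucleus had a median of -0.07, below the 0.48 of all compared genes, with 1 of 79 at least 2-fold lower, Ndufa3 with 21.3 against 47.1 CPM (-1.11), and none higher. Mitochondrially encoded genes took 6.36% of the reads in the OGT-KO-labelled library and 6.49% in the control-labelled library, and none of 12 was past 2-fold (median -0.23). mt-Nd1 had 12760 against 7199 CPM (0.83) and mt-Cytb had 7011 against 11857 CPM (-0.76). Apoe, mt-Co1 and Trf were, with Alb, among the 5 genes with the largest share of reads in both libraries, and none of them was past 2-fold.

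Grouping genes by the letters of their symbols gave 114 families of at least 10 compared genes. The largest shares of higher genes were found for Col (80.0% of 20, collagens), Myo (61.5% of 13, myosins), Cd (60.6% of 33, mainly surface antigens), Nup (60.0% of 15, nucleoporins), Kif (56.2% of 16, kinesins), Arhgap (55.0% of 20, GTPase-activating proteins), H (54.2% of 24, histone and MHC symbols) and Dusp (50% of 10, dual specificity phosphatases), with Kctd at the same share as Dusp. The largest shares of lower genes were found for Mup (93.3% of 15), Ces (58.3% of 12), Serpina (57.1% of 14), Cyp (44.9% of 49), Ugt (42.9% of 14), F (40.0% of 10, mostly coagulation factors), Hsd (38.5% of 13, hydroxysteroid dehydrogenases) and Akr (36.4% of 11). With median-ratio scaling 4 in place of 9 members were higher for Nup and 5 in place of 9 for Kif, while Col kept 16 and Cd had 19 in place of 20.

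**Figure D5:**
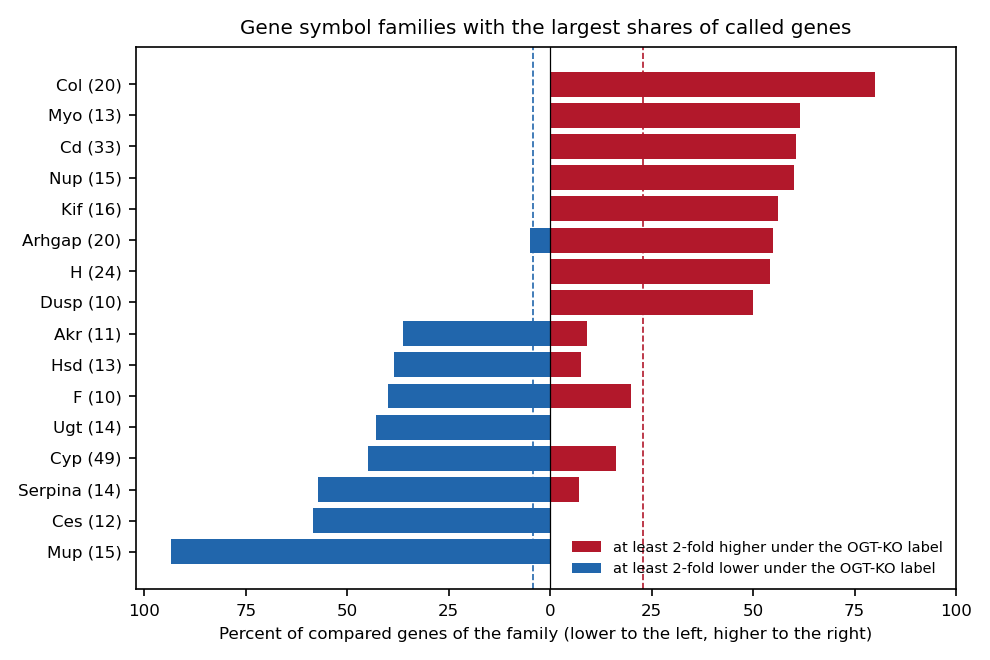
Percent of the compared genes of a symbol family (number in parentheses) that were at least 2-fold higher (red, to the right) or lower (blue, to the left) in the OGT-KO-labelled library. Dashed lines mark the shares among all compared genes, 22.9% and 4.27%, and the red bar of Col (80.0%) and the blue bar of Mup (93.3%) are the longest.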

How the data were processed

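Bulk RNA-seq of 4 pooled mouse liver libraries was deposited by the authors as 1 table of CPM (reads as parts per 1e+06). The processing notes per the labels name STAR, DESeq2 and the build GRCm39, with no version or role given in the sources used here. Every column summed to 1e+06 CPM and 100% of values were whole multiples of 1 read within 0.01 reads, from which whole reads were recovered. The table is named for DESeq2, but its scaling was that of CPM.

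Differences were log2(CPM + 1) in the OGT-KO-labelled library minus that in the control-labelled library, over genes that averaged 10 CPM or more in 4 libraries. On this scale the change of low genes is understated. With 1 library per group no test across genes was made, and a difference of at least 2-fold was called. Counting intervals (95%, exact, Clopper-Pearson for the ratio) used the recovered reads, and 3 reads were the floor. Alternative scalings were the upper quartile and the median ratio of compared genes and totals without 100 genes. Other alternatives were pseudocounts of 0.1 and 10, other filters, a 4-fold limit and an exact binomial test on reads. The filter of 10 CPM in the control-labelled library was chosen after seeing the data.

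Lists, matched by exact symbol, and the comparison itself were chosen with earlier results of these data known. Genes named were the 15 largest differences each way with a mean of at least 50 CPM, anchor genes of each list and up to 6 further members of largest difference, the 5 largest shares of each library, Ogt and Oga, genes at the filter's edge, 8 symbol families each way, and sex-linked and sex-biased genes. Others are said to be chosen after their values were seen. Some named genes are not reported here. Promoter windows of 300 bases came from RefSeq (GRCm38.p6), and 7178 of 8963 compared genes had one. Values of 0 columns of samples were left unused. The code was checked on simulated data. Python 3.11.15, numpy 2.4.6, pandas 2.3.3, scipy 1.17.1 and matplotlib 3.10.9 were used.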

Additional observations from a re-analysis of the deposited data

How the results depend on the processing

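No paired analysis was possible because each group had 1 library, and for the same reason no replicate could be left out. With an exact binomial test on reads added to the 2-fold limit, a test of these libraries rather than of the groups, the counts were 2050 higher and 383 lower, as without it. The count of genes at least 2-fold higher, 2050, became 1344 with a pseudocount of 10, 1313 with upper-quartile scaling, 1198 with median-ratio scaling, 4492 without a filter, 503 at a mean of at least 50 CPM, 1044 with at least 10 CPM in the control-labelled library and 788 at 4-fold. The count of lower genes, 383, became 634 with upper-quartile scaling, 760 with median-ratio scaling and 87 at 4-fold. The median difference, 0.48, became 0.50 with a pseudocount of 0.1, 0.37 with one of 10, 0.10 with upper-quartile scaling, 0.00023 with median-ratio scaling, 0.22 with totals without 100 genes, 0.61 without a filter, 0.30 at a mean of at least 50 CPM and 0.37 with at least 10 CPM in the control-labelled library. The count higher under every scaling, 1198, became 251 at a mean of at least 50 CPM and 376 with at least 10 CPM in the control-labelled library. These filters test other numbers of genes, and the cause of the other changes was not tested. Of 71 list medians 31 were past 2-fold, and 29 of these stayed past it with median-ratio scaling, where 9 of the 71 changed sign. At a mean of at least 50 CPM the DNA replication median turned to -1.93, since Mcm10 alone was left. Of 534 named genes 406 were past 2-fold, 367 of them with median-ratio scaling, and none of the 406 turned past 2-fold the other way under the pseudocounts and scalings tried.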

Other observations

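The ratios of 5 gene pairs, chosen after their values were seen, differed between the 2 libraries. The ratio of Pkm to Pklr was 48.8-fold higher in the OGT-KO-labelled library than in the control-labelled library. For Scd2 to Scd1 the ratio was 114-fold higher, for Mat2a to Mat1a 4.62-fold, for Abcc4 to Abcb11 24.3-fold and for Igfbp1 to Igfals 15-fold. A ratio within a library does not depend on its scaling.

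Calls varied with the level of a gene. In the fifth of compared genes with the lowest mean CPM, 35.4% were at least 2-fold higher and 1.45% lower, and in the fifth with the highest mean CPM these shares were 14.4% and 12.05%.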
